A study of Mus musculus with 8 samples.

Results

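Iron handling and heme synthesis genes were examined in ventricles of mice with and without a cardiac deletion of Med1. The set holds 10 genes, Tfrc, Fth1, Ftl1, Slc40a1, Slc11a2, Hamp, Alas1, Fech, Cpox and Hmox2, taken by symbol from a table of 23534 gene rows with a value in every library. All 10 were found, and 9 had a mean of at least 1 FPKM (sequenced fragments divided by transcript length and by library size) and were tested. Hamp lay under that minimum.

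Poly(A) RNA was sequenced from ventricles of C57BL/6 mice at postnatal day 21. The knockout group (4 libraries) came from mice with a cardiac deletion of Med1, a subunit of the Mediator complex that links transcription factors to RNA polymerase II. The control group (4 libraries), labelled WT, came from mice carrying the floxed Med1 gene, per the series' design text. The promoter that drove the deletion is not given in the sources used here, nor is it stated whether each library was 1 animal. If it was not, the p-values reflect no more than the variation among these samples, which may be technical.

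Cells take up iron mainly as transferrin through the transferrin receptor, store it in ferritin shells made of heavy and light subunits, and release it through ferroportin, which the hormone hepcidin removes from the membrane. In mitochondria iron is built into iron-sulfur clusters and into heme, whose synthesis begins with an aminolevulinate synthase and ends with ferrochelatase. The heart needs both products for its respiratory chain and for myoglobin. Iron regulatory proteins bind a hairpin in certain mRNAs, the iron-responsive element: when iron is scarce, binding in a 5′ UTR blocks translation and binding in the 3′ UTR of the transferrin receptor mRNA protects that mRNA from decay.

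Because members of opposite function carry this hairpin, its sequences are shown first. GENCODE vM21 transcripts (GRCm38, the build named mm10) were searched on the transcript strand for a loop CAGTGN not ending in G, flanked on both sides by 5 bases able to pair with each other (G with T included) and preceded by an unpaired C. Of 21877 protein-coding genes, 23 (0.105%) had a match in a 5′ UTR and 100 (0.457%) in a 3′ UTR. The match was present in a UTR of 4 of the 10 members. Each is printed 5′ to 3′ in DNA letters, 29 bases long, with the loop in capitals.
Fth1, 5′ UTR, chr19:9982732-9982760, plus strand: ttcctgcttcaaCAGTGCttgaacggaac
Ftl1, 5′ UTR, chr7:45459779-45459807, minus strand: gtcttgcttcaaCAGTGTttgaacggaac
Slc40a1, 5′ UTR, chr1:45925465-45925493, minus strand: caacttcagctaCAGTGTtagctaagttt
Tfrc, 3′ UTR, chr16:32631219-32631247, plus strand: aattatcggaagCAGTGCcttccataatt
Tfrc, 3′ UTR, chr16:32631598-32631626, plus strand: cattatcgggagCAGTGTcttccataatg
Tfrc, 3′ UTR, chr16:32631663-32631691, plus strand: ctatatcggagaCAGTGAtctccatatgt
Tfrc, 3′ UTR, chr16:32631710-32631738, plus strand: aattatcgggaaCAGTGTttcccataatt
Tfrc thus held 4 matches and the 3 other genes 1 each. A match is a description of the sequence, and elements of another shape are not found this way.

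The labels were checked on the targeted gene. Med1 (chromosome 11, 98152155 to 98193293) had 7.80 to 9.15 FPKM in the knockout libraries and 10.6 to 16.8 in WT. The log2 change was -0.74 (limma adjusted p = 0.0011), and the knockout mean was still 56.3% of WT. Total FPKM per library ran from 481650 to 502549 in the knockout and from 507458 to 536146 in WT, and the number of sequenced fragments is unknown. Of 11974 genes tested, 61.3% were called at an adjusted p under 0.05, 44.9% higher and 16.4% lower in the knockout. The median gene was 0.25 higher on the log2 scale. Rescaling the libraries by the median of their ratios removed that shift (median 0.01), and 27.0% were then called higher and 26.9% lower. Changes are therefore given both as deposited and rescaled.

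The transferrin receptor, ferroportin and the first enzyme of heme synthesis fell in the knockout, while neither ferritin subunit passed the test as deposited. As deposited, 3 of the 9 tested members were called lower (Tfrc, Slc40a1, Alas1) against 16.4% of all genes, and 1 was called higher (Fech) against 44.9%. After quantile normalization 5 were called lower, against 25.6% of all genes, and 1 higher (Fth1), against 28.7%. After rescaling 5 were called lower (with Slc11a2 and Hmox2 added) against 26.9% of all genes, and none higher (limma; 0 at an unadjusted p under 0.05). The 4 knockout libraries lay wholly below WT for 3 members, where 15.3% of all genes did so, and wholly above WT for 2 (Ftl1 and Fech), where 41.7% did. The median log2 change of the 9 members was -0.19, against 0.25 over all genes, and -0.44 against 0.01 after rescaling.

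**Figure D1:**
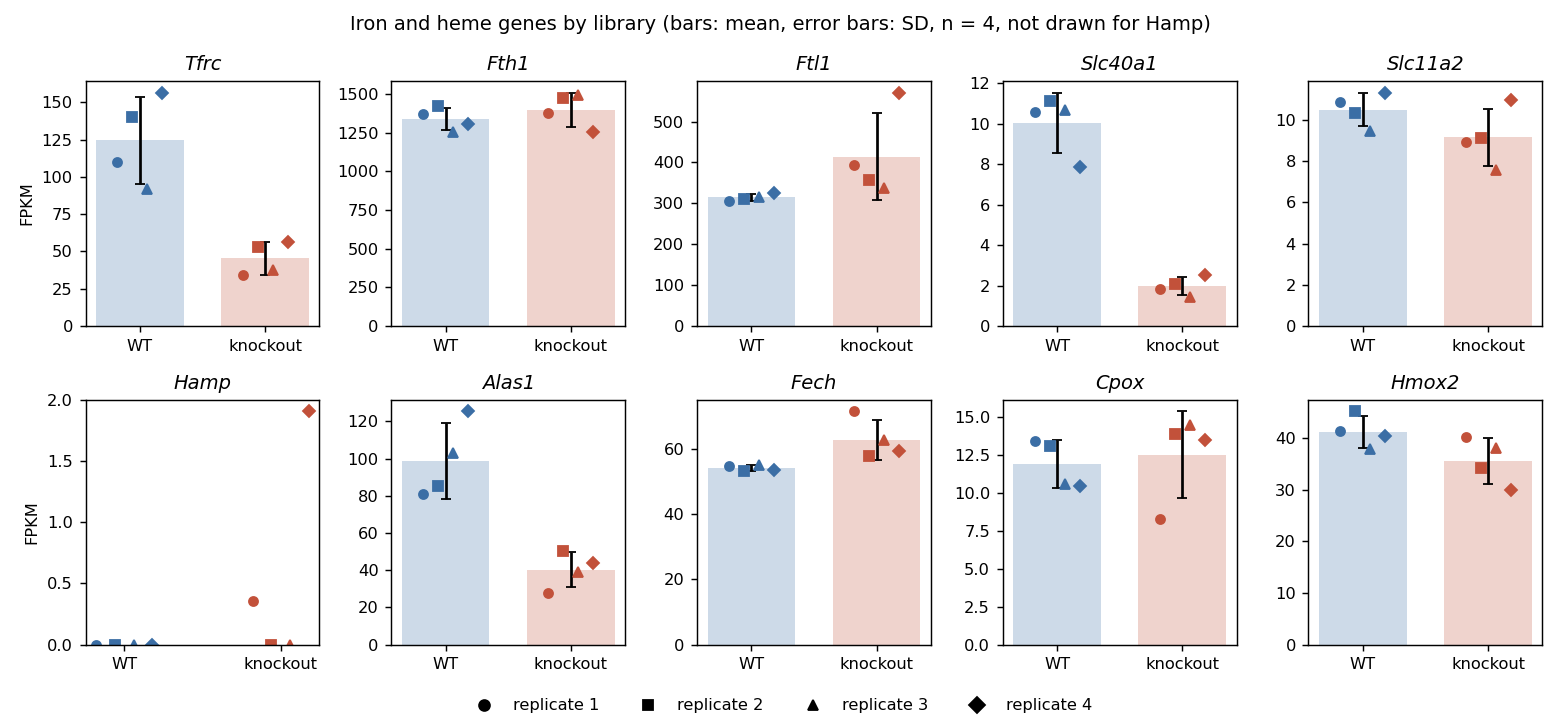
FPKM of the 10 members (vertical axes, each from 0) in the 4 WT and 4 knockout libraries, with bars at the mean and error bars of 1 SD. The knockout points of Tfrc, Slc40a1 and Alas1 lie below every WT point, those of Fth1 overlap with WT, and Hamp is above 0 in 2 knockout libraries.

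Tfrc encodes the transferrin receptor, the main port of iron entry (protein-coding, chromosome 16, 32608896 to 32632794, plus strand). It had 34.1, 52.7, 37.8 and 56.5 FPKM in knockout libraries 1 to 4 and 110.0, 140.5, 91.8 and 156.5 in WT libraries 1 to 4. The highest knockout library stayed below the lowest WT library, and both groups varied over a wide range. Mean FPKM was 125 ± 29.2 in WT and 45.3 ± 11.0 in the knockout (SD, n = 4 each), which is 36.3% of WT. The log2 change was -1.44 ± 0.205 (SE, limma adjusted p = 0.000259) as deposited and -1.72 rescaled. A change at least as low was seen in 2.51% of the genes tested.

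Slc11a2 encodes DMT1, the transporter that moves ferrous iron out of the endosome after the receptor has delivered it (chromosome 15, 100387900 to 100423055, minus strand). Its FPKM was 8.94, 9.135, 7.58 and 11.0 in the knockout and 10.9, 10.3, 9.44 and 11.3 in WT. The groups overlapped. The log2 change of -0.19 ± 0.107 did not pass as deposited (limma adjusted p = 0.159), whereas the rescaled change of -0.44 did (limma adjusted p = 0.0071). Without knockout 4 the change was -0.27 and passed as deposited (limma adjusted p = 0.0362). A protein-coding gene, Gm5475, overlaps on the opposite strand, and whether counting used strand is not given in the sources used here.

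Slc40a1 encodes ferroportin, the only known cellular exporter of iron (chromosome 1, 45908070 to 45925594, minus strand). It showed the largest fall of the 9 tested members. The values were 1.85, 2.09, 1.44 and 2.51 FPKM in the knockout and 10.6, 11.1, 10.7 and 7.84 in WT. Every knockout library was under 3 FPKM and WT 4 was the lowest of the controls. The mean went from 10.05 ± 1.49 to 1.97 ± 0.447 FPKM (SD, n = 4), a ratio of 5.10. The log2 change was -1.90 ± 0.139 (SE, limma adjusted p = 6.55e-06) with 1 FPKM added to each value, and -2.31 with 0.1 added. Only 1.30% of the genes tested had a change as low.

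Ferroportin is abundant in macrophages, so their markers are given here. None of 10 measured macrophage markers was called as deposited by limma (1 at an unadjusted p under 0.05), and 3 were called lower after rescaling. Over all genes 44.9% were called higher and 16.4% lower as deposited, and 26.9% lower after rescaling. The macrophage markers summed to 145 to 235 FPKM in the knockout and 201 to 281 in WT. The share of the Slc40a1 change that such cells carry was not tested. In bulk tissue, fewer cells of a type and less RNA per cell cannot be told apart.

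Hamp encodes hepcidin, which acts on ferroportin (chromosome 7, 30942369 to 30944017, minus strand). It was listed at 0 in all 4 WT libraries and in knockout 2 and 3. Knockout 1 had 0.352 FPKM and knockout 4 had 1.91. Its neighbour Hamp2 is a close copy, so reads may be split between them, and Hamp2 was at most 0.302 FPKM in any library. Hamp was left out of the test by the minimum of 1 FPKM. Knockout 1 and 4, where Hamp was above 0, were also the highest in the atrial gene Myl7, at 61.6 and 726 FPKM. Knockout 2 and 3 had 42.6 and 2.50 FPKM of Myl7. A link between these values was not tested.

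The ferritin genes were by far the most abundant members, and FPKM allows this comparison because it divides by length. Fth1 encodes the heavy subunit, which oxidises iron as it enters the shell (chromosome 19, 9980600 to 9985111, plus strand). It had 1376, 1475, 1492 and 1252 FPKM in the knockout and 1369, 1425, 1258 and 1309 in WT. The ranges overlapped almost completely. The log2 change was 0.06 ± 0.084 (limma adjusted p = 0.559) as deposited and -0.22 rescaled (adjusted p = 0.067), and it was 0.49 after quantile normalization (adjusted p = 0.000867). The direction of Fth1 thus depended on the scaling.

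Ftl1 encodes the light subunit, which helps the iron core to form (chromosome 7, 45457944 to 45459886, minus strand). Its FPKM was 393, 357, 337 and 571 in the knockout, against 307, 309.6, 316 and 325 in WT. All knockout libraries were above WT, most of all knockout 4. The WT values lay close together, with a mean of 314 ± 8.12 FPKM, against 414 ± 107 in the knockout (SD, n = 4). The log2 change of 0.37 ± 0.15 did not pass (limma adjusted p = 0.0587), and the rescaled change was 0.09 (adjusted p = 0.646). Without knockout 4 it was 0.20, with a limma adjusted p of 0.0484, and the knockout spread was then narrower. It also passed without knockout 2 (0.43, limma adjusted p = 0.0474) or knockout 3 (0.45, adjusted p = 0.0328). Both ferritin genes have processed copies in the genome, among which reads can be divided, and Ftl1 also overlaps Gm10252 on the other strand.

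**Figure D2:**
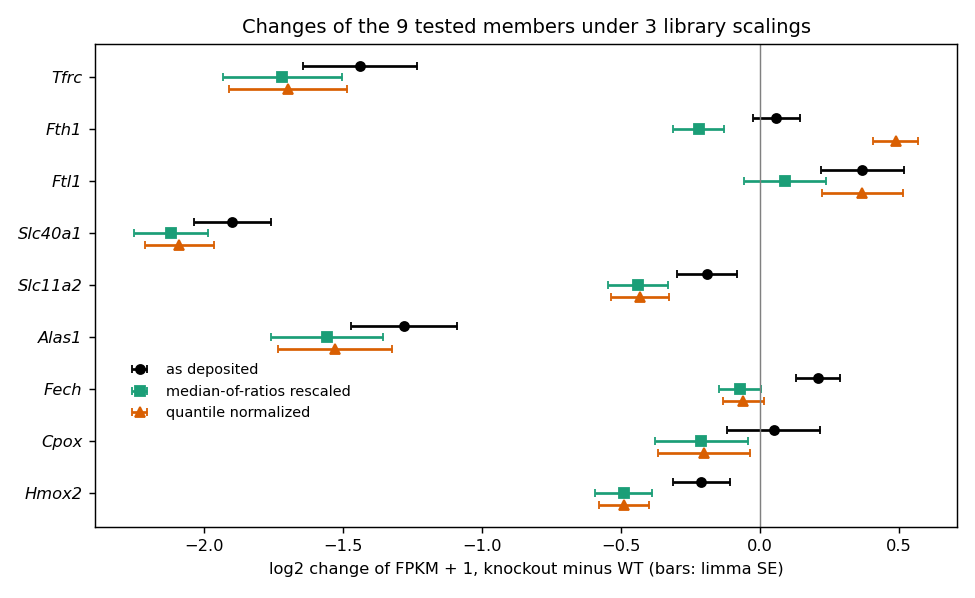
Log2 change of FPKM + 1 in knockout minus WT (horizontal axis) for the 9 tested members, with limma standard errors, as deposited, after median-of-ratios rescaling and after quantile normalization. Tfrc, Slc40a1 and Alas1 are below -1 under each scaling, and the points of Fth1, Fech and Cpox change side.

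Ratios between members within a library do not change when a single factor scales the whole library, as in median-of-ratios rescaling. Quantile normalization can change them, and the ratios here are of FPKM as deposited. Of these, 3 were compared by an exact two-sided permutation test over 70 assignments. Tfrc to Fth1, uptake against storage, was 0.0248, 0.0358, 0.0254 and 0.0451 in the knockout and 0.0804, 0.0986, 0.073 and 0.12 in WT. The groups did not overlap, as they did not for Tfrc alone. The test of this ratio therefore largely repeats the fall of Tfrc. The log2 ratio was 1.52 lower in the knockout, with a mean log2 ratio of -4.98 ± 0.416 against -3.46 ± 0.317 (SD, n = 4; exact p = 0.0286, the smallest that 4 against 4 can give, and 0.0429 adjusted over the 3 ratios).

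The ratio of heavy to light ferritin was 3.50, 4.13, 4.43 and 2.19 in the knockout and 4.46, 4.602, 3.98 and 4.03 in WT. Knockout 4 and knockout 1 were below every WT library, and knockout 2 and 3 lay within the WT range. The difference in the mean log2 ratio was -0.31 (exact two-sided permutation p = 0.229 and 0.229 adjusted), which is no larger than the spread between the knockout libraries (SD 0.456).

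**Figure D3:**
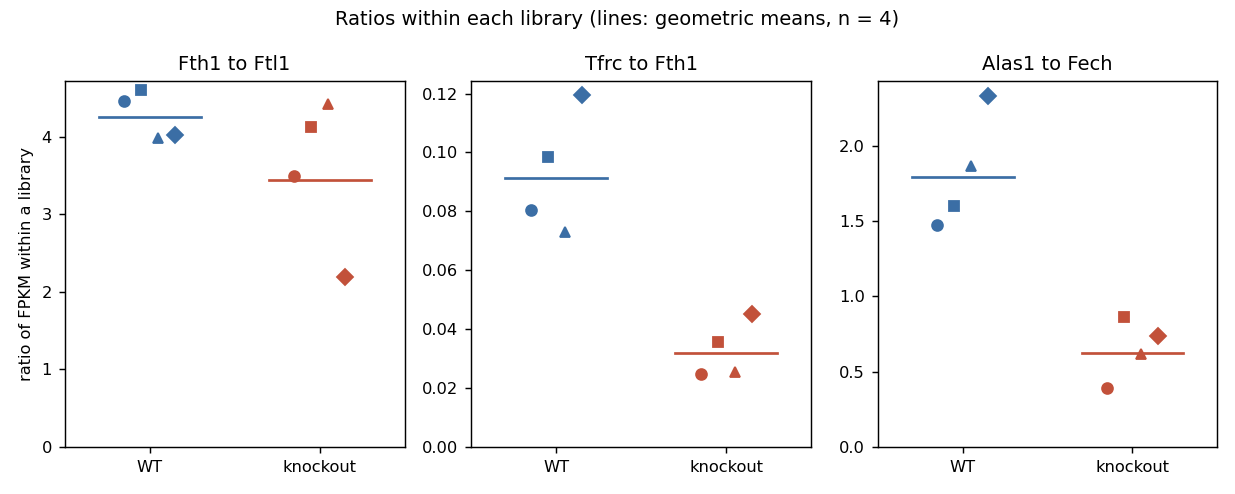
Ratios of FPKM between a pair of members within each library (vertical axes from 0), 4 WT and 4 knockout libraries each, with lines at the geometric means. Tfrc to Fth1 and Alas1 to Fech separate the groups, and Fth1 to Ftl1 does not.

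Within heme synthesis, Alas1 fell, and neither of the late enzymes Cpox and Fech was called lower under any scaling. Alas1 encodes the aminolevulinate synthase of tissues other than the red cell line and catalyses the step that commits glycine to heme (chromosome 9, 106233455 to 106247954, minus strand). It had 27.9, 50.15, 38.95 and 44.0 FPKM in the knockout and 81.1, 85.3, 103.0 and 125.5 in WT. No knockout library reached the WT range. The mean went from 98.7 ± 20.2 to 40.2 ± 9.43 FPKM (SD, n = 4), or 40.8% of WT. The log2 change was -1.28 ± 0.191 (SE, limma adjusted p = 0.00034) and -1.56 rescaled, and 3.27% of all genes tested had a change as low as deposited.

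Other enzymes of the pathway are not among the 10 genes and come from a list of heme synthesis, transport and breakdown. Alad, the enzyme that joins aminolevulinate into porphobilinogen, fell from 7.75 ± 1.52 to 3.43 ± 0.617 FPKM (limma adjusted p = 0.000317). It was lower in every knockout library than in any WT library. Uros, Urod and Ppox, named here as further enzymes of the pathway after their values were seen, did not pass, at 0.09, -0.21 and 0.13 on the log2 scale. Urod, at -0.49, was called after rescaling (adjusted p = 0.002).

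Cpox encodes coproporphyrinogen oxidase, a late enzyme in the space between the mitochondrial membranes (chromosome 16, 58670208 to 58680389, plus strand). Its values were 8.25, 13.9, 14.4 and 13.4 FPKM in the knockout and 13.4, 13.1, 10.6 and 10.4 in WT. Knockout 1 was below every WT library and the other knockout libraries were above every WT library, by little. The log2 change was 0.05 ± 0.168 (limma adjusted p = 0.815) and -0.21 rescaled (adjusted p = 0.32).

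Fech encodes ferrochelatase, which inserts iron into the finished ring (chromosome 18, 64456550 to 64489066, minus strand). It had 71.7, 57.9, 62.8 and 59.6 FPKM in the knockout and 54.9, 53.4, 55.2 and 53.8 in WT. The 4 knockout values lay above a very narrow WT range. The mean went from 54.3 ± 0.884 to 63.0 ± 6.16 FPKM (SD, n = 4). The log2 change of 0.21 ± 0.079 passed narrowly as deposited (limma adjusted p = 0.04575), turned to -0.07 after rescaling (adjusted p = 0.457) and lost the call when either knockout 1, knockout 3 or any WT library was left out (adjusted p up to 0.0959). The excess over WT was smaller than the median shift of all genes.

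Alas1 was set against Fech as the first and last enzyme. In all 4 WT libraries Alas1 was above Fech, with ratios of 1.48, 1.60, 1.87 and 2.33. In all 4 knockout libraries it was below, with ratios of 0.389, 0.866, 0.62 and 0.738. The log2 ratio was 1.52 lower in the knockout (exact two-sided permutation p = 0.0286, adjusted 0.0429). Alas1 alone already separated the groups, so this test largely repeats the fall of Alas1. Tfrc and Fech changed places in the same way, with Tfrc higher in 4 of 4 WT libraries and in 0 of 4 knockout libraries.

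**Figure D4:**
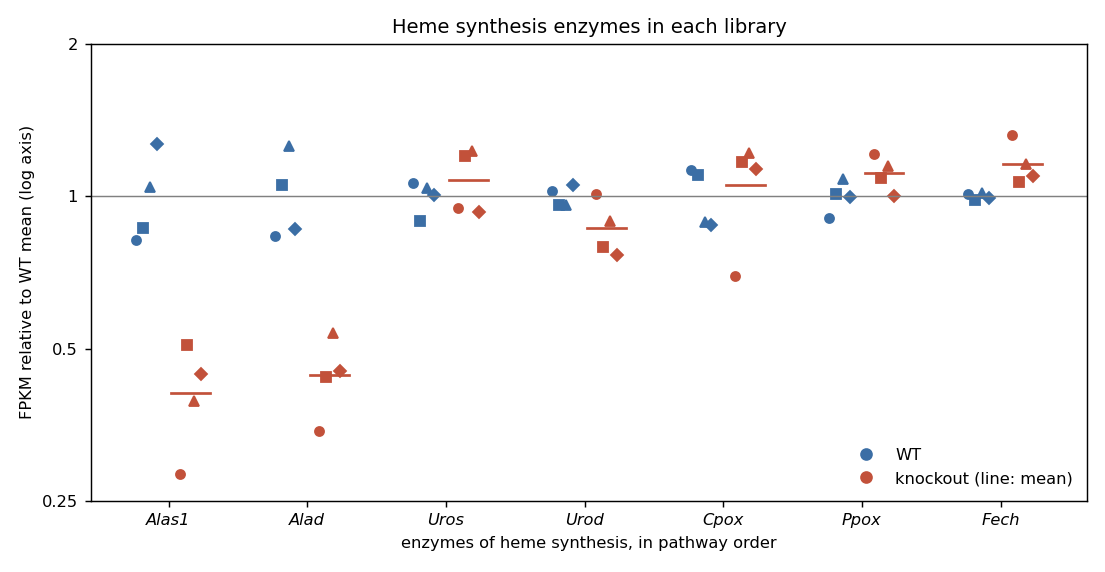
FPKM relative to the WT mean (vertical log axis) of 7 enzymes of heme synthesis, in the order of the pathway, with 1 point per library. The knockout points of Alas1 and Alad lie below all WT points, and those of the other enzymes shown lie nearer to 1.

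For Alas1 the promoter table gave a sequence of interest. Entries credited to RefSeq (GRCm38.p6) matched 7 of the 10 members by symbol. The 250 bases before each start were searched on both strands for AGGTCA (the half-site of many nuclear receptors), CACGTG (an E-box), the palindrome read by the factor NRF1 and TGACNNNGC (the core of the antioxidant element). These occur in 14.0%, 6.02%, 0.782% and 10.2% of 32851 such windows, and with a single match among the members no motifs overlapped. That match was the NRF1 palindrome of Alas1, 195 to 186 bases before a start at 106247730. The gene's other annotated start lies further upstream, so the same letters fall inside the transcript made from there. It is printed with its flanks and the palindrome in capitals.
Alas1, chr9:106247906-106247935, minus strand: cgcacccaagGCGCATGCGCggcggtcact
The other windows held none of these letters, which says nothing about the factors.

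Heme breakdown was represented by Hmox2, the heme oxygenase made at a steady level in most tissues (chromosome 16, 4726361 to 4766249, plus strand). It had 40.2, 34.1, 37.9 and 29.96 FPKM in the knockout and 41.4, 45.2, 37.8 and 40.3 in WT. The groups overlapped at their edges. The log2 change was -0.21 ± 0.102 (limma adjusted p = 0.0978) as deposited and -0.49 after rescaling, where it passed (adjusted p = 0.00307). Without knockout 1 it was -0.27 and passed as deposited (limma adjusted p = 0.0406). Cdip1 overlaps on the opposite strand. Hmox1, the inducible form, named after its values were seen, rose from 6.63 ± 0.49 to 14.5 ± 6.49 FPKM (SD, n = 4; limma adjusted p = 0.00964), with 15.35, 8.15, 11.3 and 23.15 in the knockout libraries, and still passed rescaled at 0.68.

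The authors' deposited table tested 9 of the members, all but Hamp. It lists Tfrc, Slc40a1, Alas1 and Slc11a2 as significantly lower and none as higher, where 22.8% of the 12539 genes tested in the authors' deposited table were lower and 23.1% higher. The authors' deposited table gives log2 fold changes of -1.75, -2.63, -1.58 and -0.48 for these 4 genes. For Fth1, Ftl1, Fech, Cpox and Hmox2 the authors' deposited table gives -0.22, 0.11, -0.07, -0.21 and -0.50, none of them significant. The median log2 fold change of its tested genes was 0.01 in the authors' deposited table, as it was after rescaling.

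Red cell precursors also make heme and the transferrin receptor, and erythroid RNA differed between libraries. The summed FPKM of 9 erythroid markers was 2743, 2613, 1212 and 10360 in knockout 1 to 4 and 1363, 2968, 3230 and 7058 in WT 1 to 4. Of 13 markers listed, 9 had values and none of the 8 tested was called by limma (0 at an unadjusted p under 0.05). Over all genes 44.9% were called higher and 16.4% lower. Alas2, the aminolevulinate synthase of red cell precursors, had 52.5, 36.9, 19.5 and 189 FPKM in the knockout and 20.2, 53.2, 44.9 and 114 in WT. Alas1 was above Alas2 in 4 of 4 WT libraries and 2 of 4 knockout libraries. Tfrc was highest within each group in library 4, which was also highest in erythroid markers. Without knockout 4 and WT 4, a choice made after seeing the data, the log2 changes of Tfrc, Slc40a1 and Alas1 were -1.44, -2.08 and -1.21 and all 3 were called (limma adjusted p = 0.0008645, 2.75e-05 and 0.002).

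Markers of some other cell types also differed between the groups, which does not tell cell number from RNA per cell. Of 7 ventricular cardiomyocyte markers 6 fell and 1 rose, where 16.4% of all genes fell and 44.9% rose. Their summed FPKM was 15560 to 23210 in the knockout and 43480 to 49020 in WT. Of 5 fibroblast markers 4 rose, with sums of 590 to 965 against 444 to 516. After rescaling 2 rose, beside 27.0% of all genes. Of 5 endothelial markers 1 rose and 1 fell as deposited. After rescaling 3 fell, beside 26.9% of all genes, and none rose. Endothelial sums overlapped, at 208 to 277 and 209 to 257, and hepatocyte markers summed to at most 1.02 FPKM. All 4 atrial markers rose, with sums of 5040 to 7931 against 192 to 378. Most of each sum was Nppa, at 5018 to 7829 FPKM in the knockout and 188 to 372 in WT. The atrial gene Myl7 was 726 FPKM in knockout 4 against 2.50 to 61.6 in the other knockout libraries. Across the knockout libraries Myl4 ran from 19.1 to 781 FPKM and Sln from 0.429 to 188, both lowest in knockout 3 and highest in knockout 4. The part of these differences in the changes of the iron genes was not tested.

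Of the 18 other listed heme genes with values, 6 fell, 2 rose and 10 stayed uncalled, beside 16.4% lower and 44.9% higher over all genes. The median log2 change was -0.05. After rescaling 9 fell and 2 rose, beside 26.9% and 27.0%. Abcb6, a porphyrin transporter, fell from 8.71 ± 0.896 to 2.83 ± 0.704 FPKM (SD, n = 4; limma adjusted p = 2.72e-05). Abcb10, a transporter of the mitochondrial inner membrane, fell to 46.6% of WT. Tmem14c and Clpx, named after their values were seen, fell by 0.52 and 0.66 on the log2 scale. Pgrmc1, a heme-binding membrane protein, rose from 13.5 ± 0.7445 to 27.7 ± 1.98 FPKM.

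Of 28 uptake, storage, export and hormonal control genes outside the 10 members 19 were tested, and 7 rose, 3 fell and 9 did not pass. Over all genes 44.9% rose and 16.4% fell, so these counts were near the background. After rescaling 5 rose and 5 fell, which again was near the 27.0% and 26.9% of all genes. Steap3, the endosomal reductase that works beside the transferrin receptor, fell from 15.2 ± 1.015 to 6.37 ± 1.71 FPKM (SD, n = 4; limma adjusted p = 0.000196). Hfe2, which encodes hemojuvelin, fell to 51.8% of WT. Ncoa4, the receptor that delivers ferritin to the lysosome, named after its values were seen, rose from 29.3 ± 2.63 to 49.4 ± 6.03 FPKM (limma adjusted p = 0.000265).

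Bmp6, the growth factor that drives hepcidin in the liver, rose from 5.92 ± 1.19 to 16.2 ± 4.36 FPKM (SD, n = 4; limma adjusted p = 0.00031). Lrp1, the receptor for heme bound to hemopexin and for many other ligands, rose 2.82 times. Lcn2, which binds iron-carrying siderophores, had 6.37, 2.10, 3.28 and 20.1 FPKM in the knockout and 0.684 to 1.285 in WT. Its rise was largest in knockout 4, without which the log2 change was 1.22 instead of 1.77. Steap1, Steap2, Tfr2, Cybrd1, Ftmt, Hamp2, Tmprss6, Fam132b and Hpx were under the minimum.

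The mRNAs of both iron regulatory proteins were detected in all libraries. Aco1, which encodes IRP1, fell from 13.9 ± 0.506 to 9.635 ± 1.65 FPKM (SD, n = 4; limma adjusted p = 0.00284) and by 0.76 on the log2 scale after rescaling. Ireb2, which encodes IRP2, had 18.9 to 19.7 FPKM in the knockout and 15.2 to 16.4 in WT, a log2 change of 0.30 that became 0.03 and did not pass after rescaling. The same held for Fbxl5, the iron sensor that marks both for decay, and for its ligase partner Cul1, at 0.04 and 0.19 after rescaling. The ligase subunit Skp1a rose by 0.83 and by 0.55 rescaled. This list of 5 thus had 4 higher and 1 lower by the deposited values, beside 44.9% and 16.4% of all genes. After rescaling it had 1 each, near the 27.0% and 26.9% of all genes.

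Of 20 mitochondrial iron import and iron-sulfur cluster genes tested, 10 fell, 4 rose and 6 stayed uncalled, where 16.4% of all genes fell and 44.9% rose. With single libraries left out, 7 to 9 fell. The median log2 change was -0.23. After rescaling 13 fell and 1 rose, against 26.9% and 27.0% of all genes. Abcb8, a mitochondrial transporter, fell from 30.03 ± 1.88 to 7.05 ± 1.85 FPKM (SD, n = 4; limma adjusted p = 8.06e-06). The cluster assembly genes Isca1 and Hspa9 fell to 51.15% and 52.4% of WT. Fdxr, the reductase that feeds electrons to ferredoxin, rose 1.72 times. The importer genes Slc25a37 and Slc25a28 did not pass, at -0.12 and 0.05.

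In the cytosolic cluster assembly list 5 of 9 rose, 2 fell and 2 did not pass, beside 44.9% higher and 16.4% lower over all genes. After rescaling 2 were higher and 3 lower, beside 27.0% and 26.9%. The number called higher was 3 without knockout 3, WT 1 or WT 4, and 4 without any other single library. The number called lower was 1 when any single library other than knockout 4 or WT 1 was left out. Nubp2, a scaffold subunit, rose from 11.0 ± 1.04 to 21.2 ± 3.41 FPKM (SD, n = 4; limma adjusted p = 0.000174), and Fam96b, of the targeting complex, rose 1.62 times. Narfl fell by 0.49. Nubp1 and Ndor1 rose by 0.55 and 0.29 as deposited and did not pass after rescaling (0.31 and 0.06). The median log2 change was 0.18, below the 0.25 of all genes.

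**Figure D5:**
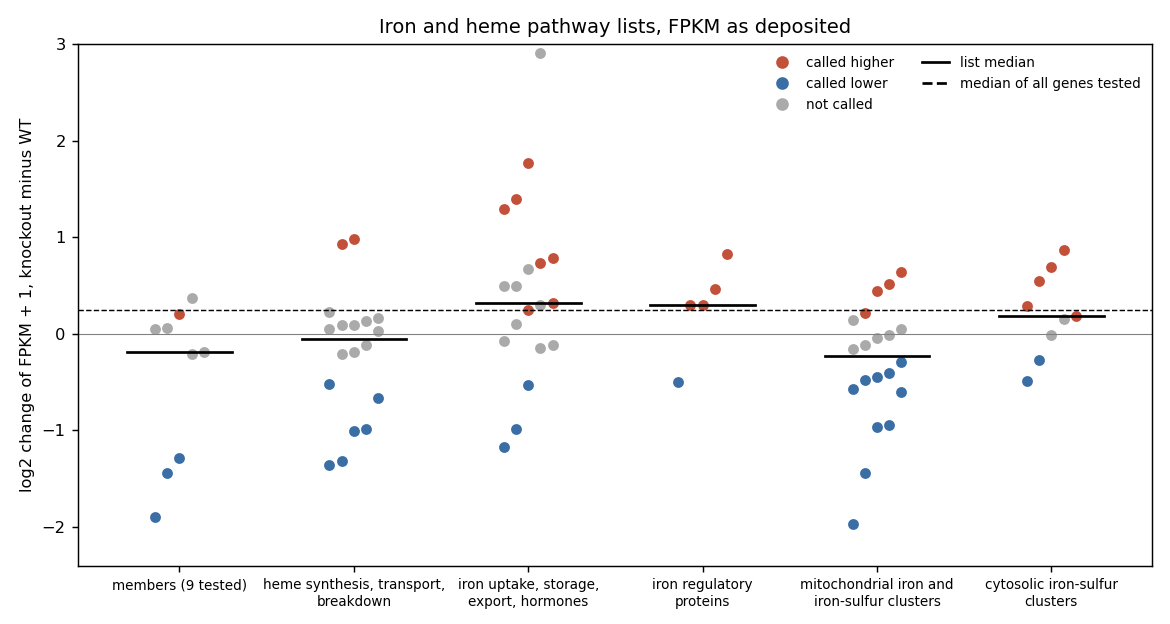
Log2 change of FPKM + 1 in knockout minus WT (vertical axis) for the tested genes of the 10-gene set and of 5 related lists, 1 point per gene, coloured by call, with a line at each list's median and a dashed line at the median of all genes tested (0.25). The lowest points are Abcb8 and Slc40a1, and medians run from -0.23 to 0.32.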

How the data were processed

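Reads of stranded poly(A) libraries were aligned to mm10 with TopHat and compared with a Cufflinks application, per the series' design text. The submitters' processing notes name TopHat 1.0.0, Cufflinks and Cuffdiff. The authors deposited a table of FPKM in each library. Their comparison table holds pooled FPKM per group, a log2 fold change, a p-value and a q-value, per the file headers. Which annotation and strand setting were used was not given in the sources used here. Of 23847 rows, 313 had no number in some library and were left out. The deposited 0.001 was read as 0. The row of highest mean stood for a symbol.

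limma (version 3.58.1, R 4.3.3) with an intensity trend was run on log2(FPKM + 1) for every gene whose mean reached 1 FPKM. Benjamini-Hochberg adjusted p under 0.05 over all genes was called. Tests were two-sided, and fold changes on this scale understate those of low genes. The procedure was tested on simulated data. Named were Med1, all members, up to 5 called genes of largest change per related list (with no call, the most abundant) and list genes under the minimum. Uros, Urod, Ppox, Alas2, Hmox1, Ncoa4, Tmem14c, Clpx, Slc25a37 and Slc25a28 were named after their values were seen. Some genes that this rule names are not reported here, though the lists' counts include them. Members and lists were chosen with earlier results of these data known. Alternatives changed the pseudocount, minimum, scaling or variance model, added a replicate block, or dropped a library.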

Additional observations from a re-analysis of the deposited data

Results flagged for a closer look

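In groups of 4, a library was singled out where its gap to the nearest other library took up more of the group's whole range than Dixon's critical value allows. Among 96 groups checked, chance alone gives about 1 in 20. Slc40a1 was 7.84 FPKM in WT 4 and 10.6 to 11.1 in the other WT libraries. Cpox was 8.25 FPKM in knockout 1 and 13.4 to 14.4 in the other knockout libraries. Ireb2 was 18.9 FPKM in knockout 4 and 19.6 to 19.7 in the others, a gap that is large only beside a very narrow spread. Myl7, an atrial myosin light chain, was 726 FPKM in knockout 4 and 2.50 to 61.6 in the others.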

How the results depend on the processing

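The falls of Tfrc, Slc40a1 and Alas1 were called under every alternative run, with log2 changes over the leave-one-out fits of -1.58 to -1.32, -2.0 to -1.81 and -1.40 to -1.12. The count of members called higher went from 1 to 0 with no expression minimum, after median-of-ratios rescaling, in limma without trend, with the replicate block and without knockout 4 and WT 4 (chosen after seeing the data), and ran from 0 to 2 with single libraries left out. The count called lower went from 3 to 5 after rescaling and after quantile normalization. After rescaling and quantile normalization in turn, the log2 change turned negative for Fech (-0.07, -0.06), Cpox (-0.21, -0.20), Uros (-0.17, -0.16), Ppox (-0.11, -0.09) and Alas2 (-0.18, -0.16), and after rescaling for Fth1 (-0.22). Without knockout 4 and WT 4, Cpox was -0.05 and Alas2 -0.12. With single libraries left out, Cpox ran from -0.02 to 0.22 (-0.01 without knockout 2 or WT 4, -0.02 without knockout 3), and Alas2 was -0.52 without knockout 4 and -0.32 without WT 1, and at most 0.55, without knockout 3. The cause was not tested. Same-numbered libraries showed little shared deviation from their group means (correlations of 0.14, 0.033, -0.041 and -0.014). Whether the replicate numbers pair the samples is not stated, and such correlations cannot settle it. The submitters' column names share no number between the groups and so name no pairs. With the replicate block as sign flips, the log2 ratios of Tfrc to Fth1 and Alas1 to Fech stayed -1.52, with an exact adjusted p of 0.1875 each, since 4 pairs allow no small p. With the block in limma, the cytosolic cluster assembly list had 3 genes called higher and 1 lower, in place of 5 and 2. Sequencing depth is unknown, so counting error of low genes such as Hamp could not be given.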
